A study of Mus musculus with 6 samples.

Results

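*Dnaic1* and 6 cytoplasmic dynein genes (*Dync1h1*, *Dync1i2*, *Dync1li1*, *Dync1li2*, *Dynll1* and *Dynlrb1*) were described in mouse liver at postnatal day 6 (P6). They were 7 of the 18138 gene symbols in the array table, and all 8 of their probes were taken, of 25697 in the table. *Dnaic1* was selected on its measured intensities, bright in control liver and dim in hSRY-ON liver, and the cytoplasmic genes as chains of the related motor. The difference between the groups therefore chose these genes, and for them it is given as a description. Their probes were part of the fit over the whole table, but no p-value is given for them.

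Dyneins are motor complexes that walk along microtubules toward the minus end. Cytoplasmic dynein moves vesicles, organelles and mitotic spindles in every animal cell and is built from heavy, intermediate, light intermediate and light chains. Axonemal dyneins are a separate set of motors that bend motile cilia and sperm tails, and *Dnaic1* (also called *Dnai1*) encodes an intermediate chain of their outer arms. Hepatocytes carry no motile cilia, and the bile duct cells of the liver carry a primary, non-motile cilium.

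Total RNA came from livers of male FVB/N pups at P6, with 3 arrays of hSRY-OFF pups and 3 of hSRY-ON pups, each from a separate mouse. The arrays were Illumina MouseRef-8 BeadChips, which carry each probe on many beads and read 1 colour. The labels give hSRY-OFF by name only. The study's methods use the name for pups with the Signalox-hSRY transgene in its unrecombined form, a single copy at the H11 locus, from which the ubiquitous CAG promoter drives the red fluorescent protein DsRed2, and they also describe littermate controls that lack the transgene, so the genotype of these 3 pups is not certain. In hSRY-ON pups the transgene had been recombined in the early embryo by Cre protein that Ddx4-Cre mothers left in the oocyte, so that CAG drove FLAG-tagged human *SRY* and EGFP in all tissues. hSRY-ON pups that carried the Ddx4-Cre transgene themselves were not used. The model is 1 transgenic line, and the whole liver was sampled, so that fewer cells of a type and less RNA per cell cannot be told apart.

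The arrays were alike in depth, with 10318 to 10762 probes detected per array (detection p-value under 0.01) and median intensities of 147 to 165. Of 12 hepatocyte markers, 11 had a probe and 9 of these were detected on all 6 arrays, *Alb*, *Apoa1* and *Hnf4a* included, while *Tat* was not detected. The first principal component held 74.3% of the variance, with scores of -38.9, -40.9 and -36.2 on the hSRY-OFF arrays and 43.2, 44.6 and 28.2 on the hSRY-ON arrays, so that hSRY-ON replicate 3 lay nearest to the controls. In all, 10734 probes were tested, and 3554 of them (33.1%) passed an adjusted p of 0.05 in limma's moderated test, 1700 higher and 1854 lower in hSRY-ON livers.

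The promoter of *Dnaic1* is shown because the gene had the largest difference of the 7 and because the window holds a site that was looked for in the other dynein and cilium genes. RefSeq places it on GRCm38.p6 at chr4:41569544-41569843, plus strand, from 250 bases before the annotated start to 50 after it. Capitals mark an X-box, the palindrome-like site of RFX transcription factors that many cilium genes carry:

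Dnaic1 promoter: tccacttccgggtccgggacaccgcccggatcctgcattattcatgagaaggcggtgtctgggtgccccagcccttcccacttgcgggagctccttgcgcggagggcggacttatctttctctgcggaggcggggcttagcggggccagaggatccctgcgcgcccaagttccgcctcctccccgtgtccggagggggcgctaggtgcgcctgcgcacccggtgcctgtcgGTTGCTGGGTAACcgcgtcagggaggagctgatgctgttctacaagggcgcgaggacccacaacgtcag

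Dync1h1 promoter: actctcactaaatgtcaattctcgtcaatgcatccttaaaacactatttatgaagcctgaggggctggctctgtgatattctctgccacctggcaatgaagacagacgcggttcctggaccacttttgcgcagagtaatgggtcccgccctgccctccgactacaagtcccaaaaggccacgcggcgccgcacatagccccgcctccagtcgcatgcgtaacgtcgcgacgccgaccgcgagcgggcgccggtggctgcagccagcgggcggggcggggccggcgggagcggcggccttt

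The *Dync1h1* window, at chr12:110601145-110601444 on the plus strand, is printed beside it as a cytoplasmic chain without the site. The X-box was searched on both strands as GTTNC followed by GGNAAC with 2, 3 or 4 bases of any kind between them, letters that were written with the *Dnaic1* sequence in view. The first base of GTTGCTGGGTAAC lay 19 bases before the *Dnaic1* start (position -19). The letters were found in 538 of 32851 promoter windows of this length in the RefSeq table (1.64%) and in none of the 7 windows of cytoplasmic members. They were in 2 of 19 windows of other axonemal dynein chains (10.5%) and 9 of 37 windows of motile cilium genes (24.3%). For dynactin, a partner complex of cytoplasmic dynein, it was 1 of 11 windows (9.09%). Windows of 1 gene can overlap, and the 9 include overlapping *Tekt2* windows that hold the same site. *Fam219a*, which starts beside *Dnaic1* on the other strand, shares the *Dnaic1* site and reads it as GTTACCCAGCAAC. The core letters that SRY and related HMG-box proteins bind, AACAAT, were present in 3521 of all windows (10.7%) and in 1 of the 8 member windows, an upstream start of *Dync1i2*. The *Dnaic1* window did not hold them on either strand. The table gave no window for *Dync1li2*.

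*Dnaic1* was bright in every hSRY-OFF liver and dim in every hSRY-ON liver on both of its probes. On probe ILMN_2744879 the deposited bead intensities were 6734, 7159 and 5312 in hSRY-OFF livers and 215, 268 and 405 in hSRY-ON livers. After background correction and quantile normalization the log2 intensities were 12.55, 12.58 and 12.47 against 6.25, 7.22 and 8.35. The groups lay far apart, the 3 controls within 0.11 of each other on the log2 scale and the 3 hSRY-ON livers spread over 2.10, with replicate 1 lowest and replicate 3 highest. The log2 means were 12.54 ± 0.06 (SD, n = 3) in hSRY-OFF and 7.28 ± 1.05 (SD, n = 3) in hSRY-ON livers, a difference of -5.26 ± 0.46 (SE of the fit), or 38.3-fold lower.

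The other probe, ILMN_2694884, gave intensities of 4974, 5575 and 3424 in hSRY-OFF livers and 180, 228 and 313 in hSRY-ON livers. In normalized log2 values these were 12.08, 12.22 and 11.87 against 5.51, 6.74 and 7.81, and hSRY-ON replicate 1 was not detected. The difference was -5.37 ± 0.51 (SE), or 41.4-fold, and -5.33 with the undetected array set to the lowest detected signal of its array. The order of the hSRY-ON livers was the same as on the first probe, and over the 6 arrays the probes correlated with r = 0.999, a description of points that share the split into 2 groups.

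Among all tested probes, 6 were lower by at least as much as ILMN_2744879, a count that includes both *Dnaic1* probes. The log2 spread within hSRY-ON livers, after background correction, was wide beside that of other probes of every brightness. Both *Dnaic1* probes were dim there, with deposited intensities of 180 to 405 beside hSRY-ON array medians of 147 to 164. The part of background correction in this spread was not tested. Of the tested probes, 1.11% had an hSRY-ON SD at least as large as ILMN_2744879, and 0.727% one at least as large as ILMN_2694884, where the median probe had 0.21. The hSRY-ON liver with the highest *Dnaic1* was replicate 3, the array nearest to the controls on the first principal component, and the part of that array in the result was not tested. Without it the differences were -5.81 and -5.95, and without hSRY-ON replicate 1 they were -4.77 and -4.80.

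**Figure D1:**
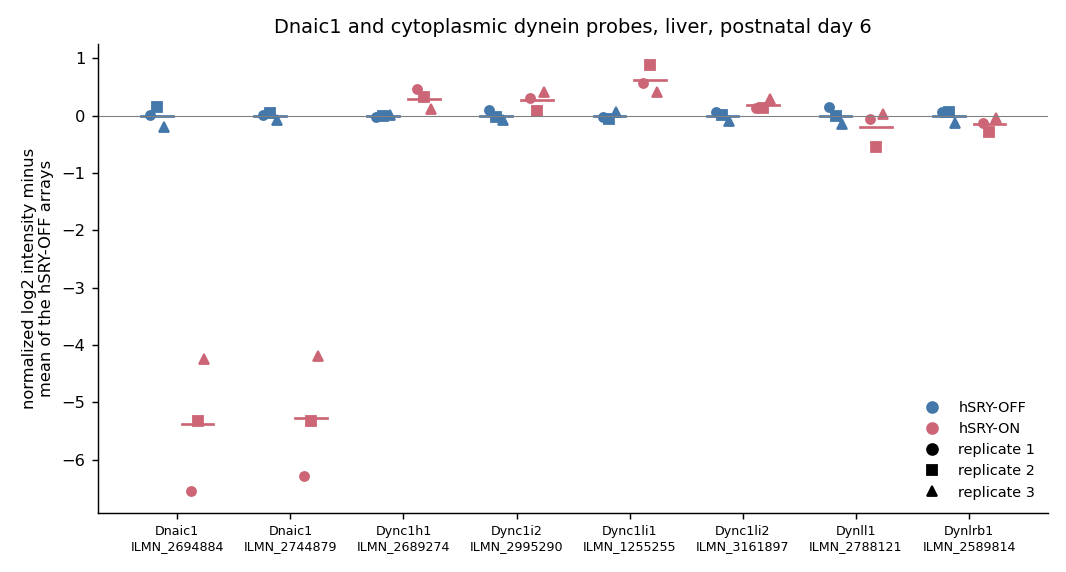
Normalized log2 intensity of each member probe on each array, minus the mean of its 3 hSRY-OFF arrays, with symbols for the replicate number and a bar at each group mean. Both Dnaic1 probes sit more than 4 log2 units below the controls in all 3 hSRY-ON livers, while the 6 cytoplasmic probes have mean differences between -0.19 and 0.63.

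The cytoplasmic chains were close to their control levels by comparison. Of their 6 probes, 5 were detected on all arrays. Their differences ran from -0.19 to 0.63 with a median of 0.23, against 0.02 over all tested probes. One of the 6, *Dync1li1*, passed the adjusted threshold of the whole table in the higher direction, where 15.8% of tested probes did, and both *Dnaic1* probes passed it in the lower direction, where 17.3% did. Since the contrast chose the genes, nothing is read from these counts. For 3 of the 6 cytoplasmic probes all hSRY-ON values lay above all controls, as 25.4% of tested probes did, and for both *Dnaic1* probes all lay below, as 24.6% did.

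*Dync1h1* encodes the heavy chain, which holds the motor domain and the microtubule-binding stalk. Its normalized log2 intensities (ILMN_2689274) were 9.69, 9.71 and 9.73 in hSRY-OFF and 10.18, 10.03 and 9.82 in hSRY-ON livers. All 3 hSRY-ON values lay above the controls, with replicate 3 nearest to them. The difference was 0.30 ± 0.13 (SE), or 1.23-fold higher.

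*Dync1i2* encodes an intermediate chain, the cytoplasmic counterpart of *Dnaic1*, which binds dynactin and carries the light chains. Its log2 values (ILMN_2995290) were 11.37, 11.25 and 11.19 in hSRY-OFF and 11.58, 11.35 and 11.69 in hSRY-ON livers. hSRY-ON replicate 2 lay within the control range, so the groups overlapped at a difference of 0.27 ± 0.13 (SE). For the intermediate chain of the axonemal motor, *Dnaic1*, the differences were -5.26 and -5.37. The 0.27 of *Dync1i2* was smaller than the median size of difference of all tested probes, 0.34. So was the size of difference of every other cytoplasmic member but *Dync1li1*, and no direction is read from any of them.

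*Dync1li1* and *Dync1li2* encode the light intermediate chains, which link the motor to its cargo adaptors. The *Dync1li1* probe (ILMN_1255255) was near background, with deposited intensities of 180, 183 and 164 in hSRY-OFF and 212, 211 and 177 in hSRY-ON livers. It was not detected on any hSRY-OFF array and was detected on all 3 hSRY-ON arrays, so that only a bound can be given. On the background-corrected scale hSRY-ON livers were at least 1.42-fold higher, from measured log2 means of 5.62 ± 0.06 and 6.24 ± 0.23 (SD, n = 3 each). The difference in measured means, 0.63 ± 0.15 (SE), was 0.21 without background correction. It did not pass the threshold then, nor without hSRY-OFF replicate 1 or 2. Because only the 3 hSRY-ON arrays detected it, it was not tested when any of them was left out, and without hSRY-ON replicate 3 *Dync1h1* was the 1 cytoplasmic probe past the threshold.

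For *Dync1li2* (ILMN_3161897) the log2 values were 7.90, 7.84 and 7.73 in hSRY-OFF and 7.96, 7.96 and 8.12 in hSRY-ON livers. The groups were apart by a narrow margin, and the difference was 0.19 ± 0.12 (SE).

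The light chains had negative differences. *Dynll1* encodes the LC8 light chain, a dimer that also binds many proteins outside dynein, and *Dynlrb1* encodes the roadblock light chain. *Dynll1* (ILMN_2788121) had log2 values of 12.73, 12.57 and 12.42 in hSRY-OFF and 12.51, 12.03 and 12.60 in hSRY-ON livers, a difference of -0.19 ± 0.18 (SE). *Dynlrb1* (ILMN_2589814) had 10.77, 10.76 and 10.57 against 10.58, 10.41 and 10.66, a difference of -0.15 ± 0.13 (SE). The groups overlapped for both, and in both hSRY-ON replicate 2 was the lowest array of all. Without that array the differences were -0.02 and -0.08, and with median scaling they were -0.38 and -0.25. None of the 8 member probes changed sign under any alternative processing in which it was tested.

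**Figure D2:**
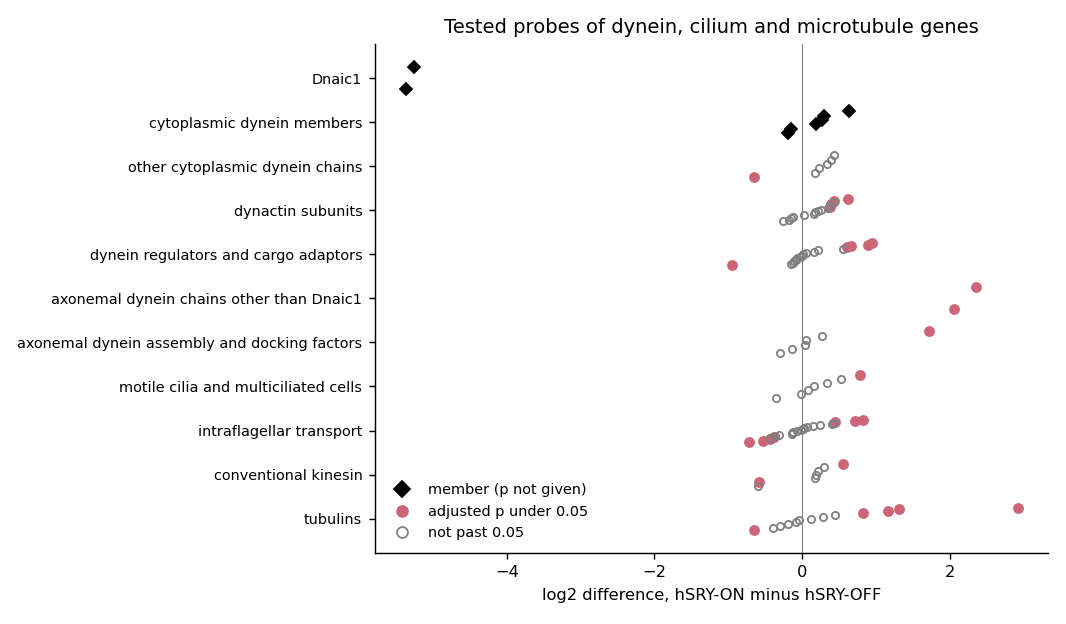
Log2 difference between hSRY-ON and hSRY-OFF livers for every tested probe of the dynein, cilium, kinesin and tubulin lists, 1 symbol per probe. Diamonds are the members, for which no p-value is given, filled circles passed an adjusted p of 0.05 in limma and open circles did not, and the Dnaic1 probes stand alone below -5.

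The other genes of these pathways were read from the same fit, and they were not members. The lists held 169 genes, of which 138 had a probe, and 96 probes were tested. Of these, 20 rose, 8 fell and 68 did not pass, or 29.2% passing against 33.1% of all tested probes, with a median difference of 0.15. Of the probes that rose, those of *Dnah2*, *Zmynd10*, *Tuba8* and *Tubb1* and the dimmer one of *Tubb2b* were detected in no hSRY-OFF liver. They passed the detection filter through the group where they were high, so these counts support no direction. Without any 1 of the hSRY-ON arrays they were not tested, which lowers the counts there. The brighter *Tubb2b* probe that rose, ILMN_1377919, was tested under every alternative. Leaving out single arrays lowered the number that rose to 4 (without hSRY-ON replicate 1), 7 (without hSRY-OFF replicate 1) or 10 (without hSRY-OFF replicate 2 or hSRY-ON replicate 2). It lowered the number that fell to 1 without hSRY-OFF replicate 1 or 2, 2 without hSRY-ON replicate 1, 3 without hSRY-ON replicate 2 and 4 without hSRY-OFF replicate 3.

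Of the axonemal dynein chains other than *Dnaic1*, 11 had a probe, and 3 of their 15 probes were detected on any array. The 2 probes that could be tested both belonged to *Dnah2*, an axonemal heavy chain. Both were detected in hSRY-ON livers only and so passed the detection filter through the group where they were high, and their count is no support for a direction of the list. The brighter, ILMN_2743932, which the array lists under the older name D330014H01Rik, had log2 values of 4.84, 4.82 and 5.34 in hSRY-OFF and 7.25, 7.45 and 7.37 in hSRY-ON livers. It was not detected in any hSRY-OFF liver, so the rise was at least 3.07-fold on the background-corrected scale, with an adjusted p of 0.000185 in limma and of 0.000439 with no detection filter. Its deposited intensities were 153, 154 and 154 against 300, 291 and 265, and without background correction the log2 difference was 0.92. The probe listed as Dnahc2 (ILMN_3123043) rose at least 2.05-fold (limma adjusted p = 0.000974), and another *Dnah2* probe was not detected on any array.

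Among 18 assembly and docking factors of axonemal dynein, 6 probes were tested and 1 rose. This was *Zmynd10*, which is needed to assemble dynein arms in the cytoplasm, with log2 values of 4.58, 4.68 and 4.77 in hSRY-OFF and 7.20, 6.17 and 5.83 in hSRY-ON livers. It was not detected in any control and so passed the detection filter through the group where it was high. The rise was at least 1.58-fold on the background-corrected scale (limma adjusted p = 0.00702, or 0.0173 with no detection filter). Without background correction the log2 difference was 0.61. Replicate 1 was its highest hSRY-ON array, where *Dnaic1* was lowest. The calls of *Zmynd10* and ILMN_2743932 held under every alternative in which they were tested. Each was untested under 4 alternatives, which left out an hSRY-ON array or required detection on all arrays, so whether the calls rest on single hSRY-ON arrays was not tested.

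Of 37 probes for motile cilium and multiciliated cell genes, 8 were detected on any array, 7 were tested and 1 rose. *Rfx2*, a factor of the family that binds X-boxes, had log2 values of 7.88, 7.48 and 8.39 in hSRY-OFF and 8.81, 8.60 and 8.67 in hSRY-ON livers, a difference of 0.78 ± 0.23 (SE, limma adjusted p = 0.0357). Its call was lost without hSRY-OFF replicate 1 or 2 or without any 1 of the hSRY-ON arrays, with adjusted p between 0.0555 and 0.109. Of the 10 multiciliated cell markers with a probe, *Foxj1*, *Hydin*, *Tekt1*, *Ccdc39*, *Ccdc40*, *Deup1*, *Pifo*, *Sntn* and *Tppp3* were not detected on any array. *Rsph1*, a radial spoke gene, was detected in all 3 hSRY-OFF livers and 1 hSRY-ON liver, with log2 values of 5.85, 5.80 and 6.16 against 5.44, 5.11 and 6.17, and its difference of -0.36 did not pass (limma adjusted p = 0.325). As on *Dnaic1*, hSRY-ON replicate 3 was its highest hSRY-ON array. The summed level of the 10 markers, mostly background, was 364 to 374 in hSRY-OFF and 333 to 389 in hSRY-ON livers, and the part of multiciliated cells in the *Dnaic1* difference was not tested. The 6 cholangiocyte markers with a probe summed to 537 to 728 in hSRY-OFF and 441 to 476 in hSRY-ON livers. *Krt19*, *Sox9* and *Cftr* were undetected. Of the 3 tested probes, from 2 genes, 2 fell, both of 1 gene, where 17.3% of all tested probes fell. Stellate and fibroblast markers also summed lower, 12885 to 15131 in hSRY-OFF against 9895 to 11686 in hSRY-ON livers. Their 9 tested probes were mixed. Of these, 3 fell, 1 rose and 5 did not pass, with differences from -1.66 to 0.77. The sums of erythroid, macrophage, endothelial and neutrophil markers overlapped between the groups, but a sum can hide probes that differ. Of 7 tested endothelial probes 3 rose and 1 fell, with differences from -0.58 to 1.94. Of 11 macrophage probes 1 rose and 3 fell, of 6 erythroid probes 1 rose and 0 fell, and of 9 neutrophil probes 0 passed. Over all tested probes 15.8% rose and 17.3% fell. The part of bile duct cells in the *Dnaic1* difference was not tested.

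Hepatocyte markers were read in the same way. Of their 13 tested probes 5 fell, 0 rose and 8 did not pass, where 17.3% of all tested probes fell. Their differences ran from -1.11 to 0.49, with a median of -0.18. *Alb* and *Asgr1*, among the 4 genes with a probe that fell, were lower by 1.11 and 0.74 (limma adjusted p = 0.00852 and 0.0106). The summed level of the markers was 229760 to 241053 in hSRY-OFF and 207472 to 229851 in hSRY-ON livers. The part of hepatocyte number or state in the *Dnaic1* difference was not tested.

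**Figure D3:**
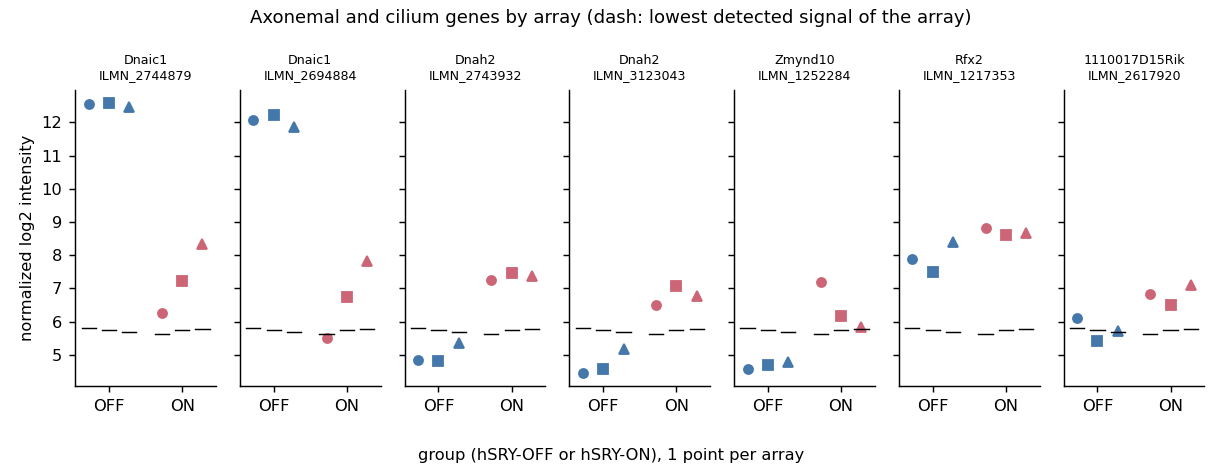
Normalized log2 intensity per array for Dnaic1 and the axonemal, cilium and neighbouring genes named in the text, with a dash at the lowest detected signal of each array. Dnaic1 lies at 11.87 or higher in every hSRY-OFF liver and at 8.35 or lower in hSRY-ON livers, while both Dnah2 probes and Zmynd10 lie below the limit in hSRY-OFF and above it in hSRY-ON livers.

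Of the cytoplasmic dynein chains outside the members, 6 probes were tested, 1 fell and 5 did not pass, with a median difference of 0.28. The one that fell was *Dynll2*, the other LC8 light chain, at -0.65 ± 0.19 (SE, limma adjusted p = 0.0326). Its adjusted p was 0.0555 to 0.12 without hSRY-OFF replicate 1 or 2 or hSRY-ON replicate 1 or 2. Of the dynein-2 chains, which drive transport back along the cilium, *Dync2li1* had a difference of 0.18, *Wdr34* 0.23 and *Wdr60* 0.39, and none of these passed. The highest difference of the list was 0.43, for *Tctex1d2*, which did not pass either (limma adjusted p = 0.0612).

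Dynactin, the complex that makes cytoplasmic dynein processive and couples it to cargo, had 16 tested probes, of which 4 rose and 12 did not pass, with a median of 0.23. *Dctn1*, the large p150 subunit, had log2 values of 6.63, 6.72 and 6.63 in hSRY-OFF and 7.47, 7.04 and 7.32 in hSRY-ON livers, a rise of 0.62 ± 0.14 (SE, limma adjusted p = 0.0153). *Dctn2*, the dynamitin subunit, rose by 0.37 (adjusted p = 0.0346), *Dctn4* by 0.39 (adjusted p = 0.0449) and *Dctn3* by 0.43 (adjusted p = 0.0391), each on 1 of its probes in limma. Single arrays decided these calls. Without hSRY-OFF replicate 1 the adjusted p of *Dctn1* was 0.0628, *Dctn2* was lost without any hSRY-OFF array or hSRY-ON replicate 1 or 2 (0.0679 to 0.117), *Dctn3* without any array but hSRY-OFF replicate 3 (0.0502 to 0.134) and *Dctn4* without any array (0.0551 to 0.159).

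Among regulators and cargo adaptors of dynein, 17 probes were tested, of which 4 rose, 1 fell and 12 did not pass, with a median of 0.01. *Pafah1b1* encodes LIS1, which helps dynein into its active form, and rose by 0.66 ± 0.17 (SE, limma adjusted p = 0.0255). *Trak2*, a mitochondrial adaptor, rose by 0.95 and 0.89 on its probes (limma adjusted p = 0.0205 and 0.0238). The adaptor *Bicd2* rose by 0.61 on 1 probe (limma adjusted p = 0.0155) and stood at -0.08 on the other. *Spdl1*, which recruits dynein to kinetochores and is listed as Ccdc99, fell by 0.95 (limma adjusted p = 0.0225). These calls were lost without hSRY-OFF replicate 1 (*Pafah1b1*, *Trak2*, *Bicd2*, *Spdl1*), replicate 2 (*Pafah1b1*, *Trak2*, *Spdl1*) or replicate 3 (*Pafah1b1*, *Bicd2*), or without hSRY-ON replicate 1 (*Pafah1b1*, *Trak2*, *Spdl1*) or 2 (*Spdl1*), with adjusted p of 0.0518 to 0.1.

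Intraflagellar transport, which builds primary and motile cilia alike, moved in both directions, with 3 of 22 tested probes higher, 4 lower and 15 not passing, and a median of -0.04. *Ift27*, a small GTPase of the transport train listed as Rabl4, fell by 0.72 ± 0.14 (SE, limma adjusted p = 0.00733), a call that held under every alternative. *Ift140* fell by 0.53 (limma adjusted p = 0.028) and *Ift172* by 0.38 (limma adjusted p = 0.0466), while *Ift43* rose by 0.71 (limma adjusted p = 0.0152) and *Kif3a*, a subunit of the kinesin that drives outward transport, by 0.83 (limma adjusted p = 0.0244). *Ift140* was lost without any hSRY-OFF array or hSRY-ON replicate 1 (0.0733 to 0.0881), *Ift172* without any array (0.0509 to 0.147), *Ift43* without hSRY-OFF replicate 3 or hSRY-ON replicate 1 (0.0517 to 0.0531) and *Kif3a* without hSRY-OFF replicate 1 or 2 or hSRY-ON replicate 1 (0.0525 to 0.0764).

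For the kinesin list, 7 probes were tested, 1 rose, 1 fell and 5 did not pass. *Klc2*, a kinesin light chain, rose by 0.55 (limma adjusted p = 0.0457) and *Kif13a* fell by 0.58 (limma adjusted p = 0.0363). *Klc2* was lost without hSRY-OFF replicate 1 or 3 or hSRY-ON replicate 1 or 3 (0.0753 to 0.126), and *Kif13a* without any array but hSRY-OFF replicate 3 (0.0515 to 0.126).

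Of 13 tested tubulin probes, the tracks of these motors, 4 rose, 1 fell and 8 did not pass, with a median of 0.12. *Tubb2b* had log2 values of 7.59, 7.47 and 7.53 in hSRY-OFF and 10.43, 9.86 and 11.07 in hSRY-ON livers on ILMN_1377919, a rise of 2.92 ± 0.28 (SE, limma adjusted p = 0.000533). Its 3 probes disagreed, with -0.08 and not passing on ILMN_2588051 and a rise of at least 1.39-fold on ILMN_1221835 (limma adjusted p = 0.00834), and tubulin genes are similar enough that probes may not tell them apart. On the background-corrected scale *Tuba8* rose at least 1.35-fold (limma adjusted p = 0.00131) and *Tubb1* at least 1.52-fold (limma adjusted p = 0.0278). These 2 and ILMN_1221835 were undetected in hSRY-OFF livers and passed the detection filter through the group where they were high. With no detection filter the limma adjusted p was 0.00218 for *Tuba8* and 0.0557 for *Tubb1*. Without background correction the log2 differences of *Tuba8* and *Tubb1* were 0.36 and 0.28. *Tubg1*, the γ-tubulin of centrosomes, fell by 0.65 (limma adjusted p = 0.0275). *Tubb1* was lost without any hSRY-OFF array (0.0541 to 0.105), and *Tubg1* without any hSRY-OFF array or hSRY-ON replicate 1 or 2 (0.0511 to 0.104).

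Genes beside *Dnaic1* on the chromosome were read to see whether their signal also differed. RefSeq annotates 12 genes within 100 kb, of which 8 are protein-coding and 5 had a probe. The body of 1 gene, *Enho*, which encodes the secreted peptide adropin, overlaps *Dnaic1* at its end, and no probe of the table carried its name. The table gives no probe sequences, so whether the *Dnaic1* probes lie in the overlap was not tested. Neither *Fam219a* nor *Enho* was measured here.

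The neighbours that were measured moved in both directions. *1110017D15Rik*, also called *Cbe1* and *Smrp1*, had log2 values of 6.12, 5.41 and 5.72 in hSRY-OFF and 6.82, 6.50 and 7.09 in hSRY-ON livers on its 1 tested probe. It rose by 1.06 ± 0.22 (SE, limma adjusted p = 0.0114), or 0.95 with the undetected control array at the detection limit and 0.41 without background correction. One of its 2 promoter windows, at chr4:41507715-41508014 on the minus strand, also holds an X-box, GTTGCCCGGCAAC, at position -18. *Rpp25l*, listed as 2810432D09Rik, went the other way, with log2 means of 11.03 ± 0.11 and 10.39 ± 0.16 (SD, n = 3 each), and fell by 0.65 ± 0.13 (SE, limma adjusted p = 0.0101). The dynactin gene *Dctn3* lies here too, with the values above, and its window holds the X-box GTTACCTAGGTAAC at position -142. *Arid3c* and *Cntfr* were not detected on any array.

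The probes most like *Dnaic1* across the 6 arrays were listed by their Pearson correlation with ILMN_2744879. They were *Fam173a* (now *Antkmt*) with r = 0.9992, *Arfgap2* with 0.9989, and *Slc17a3*, *C8g* and *Prdx4* with 0.9988 each. *C8g*, the gamma chain of complement component 8, had log2 values of 13.36, 13.50 and 13.48 in hSRY-OFF and 10.05, 10.41 and 11.07 in hSRY-ON livers, the same order of arrays within hSRY-ON as *Dnaic1*. The differences were -2.94 for *C8g*, -1.12 for *Prdx4*, an endoplasmic reticulum peroxiredoxin, -1.02 for *Arfgap2* and -0.46 for *Fam173a*, all smaller in size than that of *Dnaic1*. *Slc17a3* was not detected in hSRY-ON livers and was at least 1.07-fold lower. Of 10732 probes compared, 690 had r of at least 0.95, since all points share the same split into 2 groups, and the list is a description.

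**Figure D4:**
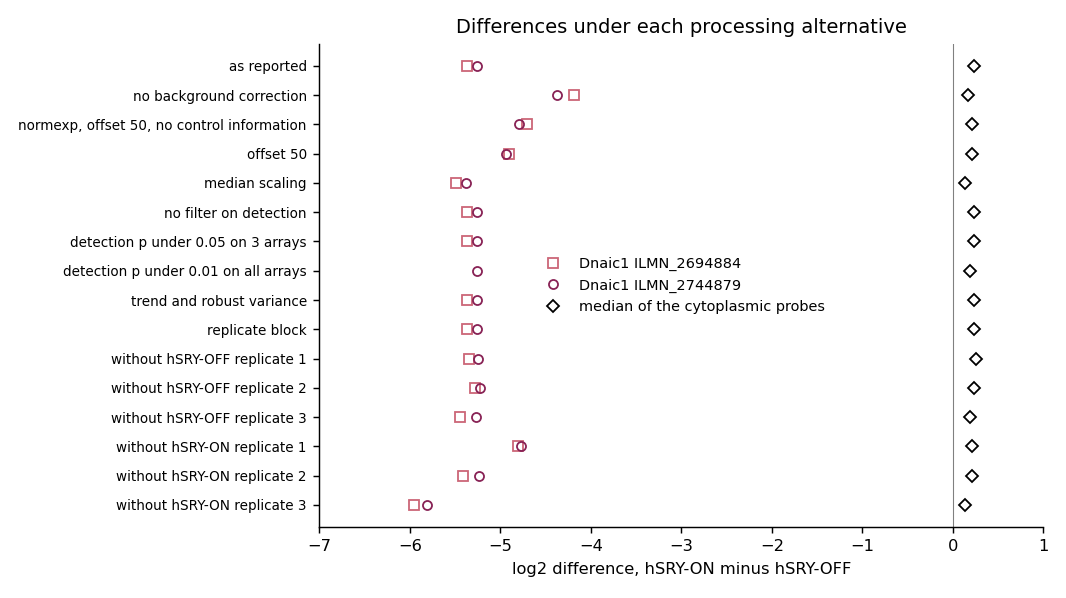
Log2 difference between hSRY-ON and hSRY-OFF livers of the Dnaic1 probes (square and circle) and the median of the cytoplasmic member probes (diamond), as reported and under each of 15 processing alternatives. The Dnaic1 differences stay between -5.95 and -4.19 and the cytoplasmic median stays above 0 throughout, with 1 Dnaic1 probe untested where detection on all arrays was required.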

How the data were processed

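Bead intensities and detection p-values of 25697 probes on 6 arrays were used as deposited. The authors labelled cRNA with biotin from total RNA (Ambion TotalPrep) and deposited linear intensities that were neither background-subtracted nor normalized, with a detection p-value deposited for each. Per the labels limma was used, while the study's methods name TCC, a count method, and the scanner software is not given in the sources used here. All value columns matched a sample (0 without one). The number of arrays limits the precision.

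Background was removed from the intensities with nec (offset 16), followed by quantile normalization and log2. Any probe that 3 or more arrays detected (p under 0.01), whatever their group, was tested with lmFit and eBayes in limma 3.58.1 (R 4.3.3), two-sided, with Benjamini-Hochberg adjustment over all tested probes, and no covariates. An "at least" fold sets undetected arrays to the lowest detected signal, or to the probe's own if that is higher. It is a bound on the background-corrected scale only, and differences without background correction can be smaller. The fit was tested on simulated data, where 48 of 99 probes with a log2 change of 1 and 84 of 98 with a change of 2 were called, of 13828 tested. The changed probes were a far smaller share than the 33.1% called in the data. These rates therefore do not carry over to the data, and false calls are not given here.

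Named were all member probes, up to 4 passing genes per list and direction by smallest p, all probed neighbours within 100 kb and the 5 probes most like *Dnaic1*. Members and lists were chosen with earlier results of these data known. Of 18138 symbols, 14307 were current in RefSeq, 2926 matched an older name and 905 did not match. The alternatives were other background corrections, scaling, filters, variance models, a replicate block and leaving out each array.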

Additional observations from a re-analysis of the deposited data

How the results depend on the processing

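No member probe, and none of the 26 pathway and neighbour probes followed under the 15 alternatives, reversed under any in which it was tested. The probes most like *Dnaic1* were not followed. Without background correction the *Dnaic1* differences were -4.37 and -4.19, the number of cytoplasmic probes called was 0 and pathway probes that fell numbered 5. That number was 5 with trended, robust variance and 4 with median scaling. With median scaling 1 neighbour probe rose. Requiring detection on all arrays left *Dync1li1* and ILMN_2694884 untested, and leaving out an hSRY-ON array left *Dync1li1* untested. With detection on all arrays, 0 cytoplasmic probes were called. Leaving out 1 array gave -5.81 to -4.77 and -5.95 to -4.80 for *Dnaic1*, 0 to 1 cytoplasmic probes called with a median of 0.13 to 0.26, 4 to 15 pathway probes higher and 1 to 8 lower, 1 to 3 neighbour probes higher and 1 lower, and 856 to 1822 probes higher and 965 to 2125 lower over the whole table. Those whole-table minima came without hSRY-OFF replicate 1. The difference of *Dync1li1* was 0.33 and 0.40 with an offset of 50, and 0.21 without background correction. Without background correction the differences of *Dync1li2*, *Dynll2*, *Dctn1*, *Spdl1*, *Kif3a*, *Ift140*, *Ift172*, *Kif13a* and *Klc2* shrank by over 1.5 times, to 0.12, -0.27, 0.31, -0.62, 0.37, -0.29, -0.18, -0.20 and 0.22 in that order, and *Dync1i2* was 0.15 with median scaling. Of 25 named calls, 7 were lost under no alternative that tested them. Among these, *Dnah2* (ILMN_2743932), *Zmynd10* and *Tuba8* were each untested under 4 alternatives. Besides the losses without single arrays, calls were lost for *Bicd2*, *Dctn2*, *Dctn3*, *Dctn4*, *Dynll2*, *Ift172*, *Kif13a* and *Klc2* with median scaling, for *Dynll2*, *Ift172*, *Kif13a*, *Klc2* and *Tubb1* without background correction, for *Ift172*, *Kif13a* and *Klc2* with an offset of 50, and for *Dynll2*, *Kif13a*, *Klc2*, *Rfx2* and *Tubb1* with no filter. A looser detection filter lost *Dctn4*, *Ift172* and *Klc2*, and trended, robust variance lost these and *Kif13a*.

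Replicate numbers did not pair the arrays. Same-numbered arrays correlated with r = 0.025, 0.095 and 0.052 in their deviations from the group means. Only hSRY-OFF replicate 3 and hSRY-ON replicate 2 correlated best with their own number. With the replicate block, 15 pathway probes were higher and 4 lower, 1 neighbour probe was higher, and 1565 probes were higher and 1645 lower over the whole table, the calls of *Dctn2*, *Dctn3*, *Dctn4*, *Dynll2*, *Ift140*, *Ift172* and *Klc2* were lost, and the *Dnaic1* differences stayed at -5.26 and -5.37. Probes near background, *Dync1li1* among them, are limited by signal over background, and the cause of each change was not tested.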
